A study of Saccharomyces cerevisiae with 8 samples.

Results

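DEF1 (YKL054C) of budding yeast was followed across all 8 libraries of a poly(A)-site sequencing study. It is 1 of the 5933 genes in the deposited tables. It was chosen by its truncated fraction, ProPrx fraction and counts in these same tables: many of its reads stopped short of the 3′ UTR, and the share of such reads was lower in caffeine. Its counts, fractions and lengths are therefore given below as a description, with no test. The assay was direct RNA sequencing on the Helicos platform, which reads single RNA molecules from their poly(A) tail, so that a read marks where an RNA was cleaved and polyadenylated. Per the labels, all strains were of the W303 background with the markers ura3-1, trp1-delta, ade2-1, leu2 and his3-11,15. In all of them a TRP1 cassette had replaced chromosomal PCF11 (pcf11-delta::TRP1), and a LEU2 plasmid supplied PCF11 or a mutant allele. Wild type (MAT alpha) had V5-PCF11-MYC on that plasmid, pcf11-13 (MAT a) had an untagged mutant allele, and pcf11-dNL (MAT alpha) had V5-pcf11-deltaN-link-MYC. Each strain grew in YPAD, a rich medium, at 30 °C and was sampled without caffeine or after 2 h in 20 mM caffeine, so that time in culture and caffeine cannot be told apart. Wild type has 2 libraries per medium, from experiments 1 and 2. Each mutant has 1 library per medium, pcf11-13 from experiment 1 and pcf11-dNL from experiment 2. The labels name no separate cultures beyond the experiment numbers, so that any spread between libraries may be technical.

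Def1 takes part in the last-resort removal of RNA polymerase II that has stalled on damaged DNA. The ubiquitin ligase Rsp5 first marks the polymerase subunit Rpb1, Def1 then brings in the Elongin-cullin ligase of Elc1, Ela1, Cul3 and Hrt1 (Rbx1), and the chain they build sends Rpb1 to the proteasome. A pre-mRNA that is cleaved and polyadenylated inside its coding region gives a truncated RNA with no stop codon. In yeast, cleavage sites follow a UA-rich efficiency element, bound by Hrp1, and an A-rich positioning element. Early termination can also use short sites of the RNA-binding proteins Nrd1 and Nab3. Pcf11 belongs to cleavage factor IA, which takes part in the cleavage of the RNA at the poly(A) site and also helps the polymerase to let go.

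DEF1 lies on the minus strand of chromosome XI at 336537 to 338753 of the R64 (sacCer3) assembly, as a single coding exon of 2217 bases. OAR1 starts 379 bases beyond its stop codon and MDM35 lies 428 bases before its start codon. The stretches printed here hold some of the known element words inside and after the coding region. They are RefSeq R64 sequence of the reference strain S288C, not of W303, written 5′ to 3′ on the DEF1 strand. Capitals mark only the elements that a line is printed for. The Nrd1 word GTAA at base 180 after the stop codon is left in lower case. The line for the 3′ UTR, chrXI:336345-336374, covers bases 163 to 192 after the stop codon. It shows the first run of efficiency elements with the positioning element that follows them. The line for the weaker efficiency element, chrXI:338437-338466, covers bases 288 to 317 of the coding region. The lines for the Nrd1 words, chrXI:338696-338725 and chrXI:338384-338413, cover bases 29 to 58 and 341 to 370.
DEF1 3′ UTR elements: TATATATATATAcgtacgtaaatAATAAAa
DEF1 coding weaker efficiency element: agaagatgatatTACATAtaagagttctaa
DEF1 coding Nrd1 words, first: ataatagtcataGTAGTAAaaaactaaatc
DEF1 coding Nrd1 words, second: caaagcataacaGTAGTAAcaattatactc

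Words were counted on both strands, overlapping matches included. The efficiency word TATATA, which reads alike on both strands, has 6 matches, in 2 runs, within the 250 bases after the stop codon, and 96.2% of 6001 such flanks have fewer. The coding region has no TATATA, whereas 35.6% of the 1070 coding regions at least as long have it in their first 2217 bases. The weaker word TACATA matches once in the DEF1 sense strand, at base 300, and 32.7% of those coding regions have it. The positioning word AATAAA has no sense match in the coding region, although 80.3% of the coding regions have it, and it has 2 in the flank (35.4% of flanks have any). A second positioning word, AAGAAA, matches at 10 places between bases 208 and 1079, and 97.6% of the coding regions have fewer. The Nrd1 words GTAA and GTAG match 5 and 4 times in the sense strand of the coding region, against medians of 7 and 4, and the Nab3 word TCTT 5 times against 11. On the other strand the coding region has 12 GTAA, 11 GTAG, 45 TCTT, and no match to the 4 efficiency and positioning words. GTAA and GTAG overlap as GTAGTAA at 2 places. Of the coding regions 9.35% have this 7-base word, and 99.7% have fewer than 2. The word was taken from the overlap in DEF1 itself, so these shares only describe it. These are matches of letters, and the positions of single truncated reads were not analysed here.

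**Figure D1:**
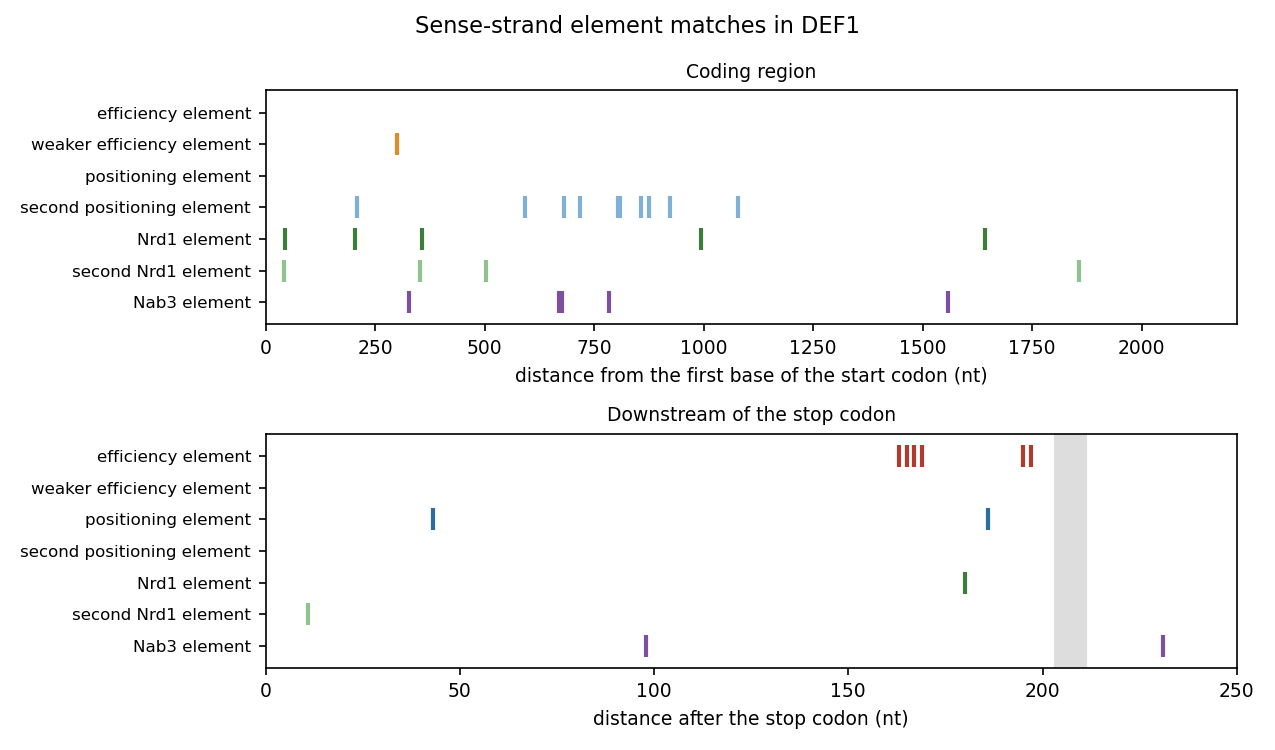
Sense-strand matches of 7 element words in DEF1, with the coding region above (distance from the start codon, nt) and the flank below (distance after the stop codon, nt). Each tick is 1 match, and the grey band spans the mean 3′ ends of the 8 libraries, 203 to 211 nt after the stop codon, just past the run of efficiency elements. All 10 coding matches to the second positioning word lie between bases 208 and 1079.

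Library totals ran from 1070278 to 4555751 counts, and DEF1 had between 685 and 1828 of them. In 3 of the 4 pairs the caffeine library was the deeper of the pair (4413677 counts against 1070278 in wild type of experiment 1, 4410374 against 1631254 in experiment 2, and 4555751 against 1071339 in pcf11-dNL). In pcf11-13 it was the shallower (2088078 against 2393801). URA3 and features of the 2-micron plasmid took 8.36% and 11.4% of the counts in the wild-type libraries of experiment 1 and at most 0.463% elsewhere. Levels are in CPM, the count divided by the library total in units of 1e6 reads, with the total scaled by the trimmed mean of M-values (TMM). The mating pheromone genes went with the labelled mating types: MFA2 (a-factor) stood at 1863 and 1314 CPM in pcf11-13 and at most 25.2 CPM in the other libraries. PCF11 itself, read from the plasmid, ranged from 109 to 222 CPM, which does not test the allele.

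DEF1 RNA was lower in caffeine in every pair. Without caffeine its total level was 706 and 686 CPM in wild type of experiments 1 and 2, 685 CPM in pcf11-13 and 1051 CPM in pcf11-dNL. In caffeine it was 215 and 155 CPM in wild type, 353 CPM in pcf11-13 and 243 CPM in pcf11-dNL. The 4 untreated values all lie above the 4 treated ones, so that the media do not overlap. How many other genes separate the media in this way was not counted. The wild-type mean went from 696 ± 14.1 CPM to 185 ± 42.9 CPM (SD, n = 2), a log2 change of -1.93 ± 0.31 (SD over the 2 experiments), with -1.71 in experiment 1 and -2.14 in experiment 2. From a sum of poly(A) reads, fewer DEF1 molecules per cell cannot be told apart from a larger total of other RNA. In order, the group levels ran from pcf11-dNL without caffeine, through wild type and pcf11-13 without caffeine, to pcf11-13, pcf11-dNL and wild type in caffeine. Of these neighbours, untreated wild type and untreated pcf11-13 differ by less than the wild-type SD.

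Most untreated DEF1 reads were truncated, that is, they ended before the 3′ UTR. The truncated share was 55.8% in untreated wild type of experiment 1 (95% Wilson interval 52.1 to 59.4%, 712 counts) and 66.4% in experiment 2 (63.5 to 69.2%, 1051 counts). It was 52.7% in untreated pcf11-13 (50.4 to 55.0%, 1828 counts) and 66.6% in untreated pcf11-dNL (63.8 to 69.3%, 1129 counts). The untreated libraries thus split by experiment, with the 2 of experiment 1 below the 2 of experiment 2. In caffeine the truncated share was 20.8% (18.2 to 23.6%, 853 counts) and 27.6% (24.4 to 31.1%, 685 counts) in wild type of experiments 1 and 2. In caffeine it was 24.8% in pcf11-13 (21.8 to 27.8%, 793 counts) and 28.7% in pcf11-dNL (26.1 to 31.4%, 1154 counts). DEF1 was picked by this fraction, so the gap between untreated and treated intervals is a description, not a test. These intervals cover counting error only.

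The wild-type truncated fraction went from 0.611 ± 0.075 to 0.242 ± 0.048 (SD, n = 2), a difference of -0.369 ± 0.027 (SD), with -0.350 and -0.388 in experiments 1 and 2. The difference was -0.279 in pcf11-13 and -0.379 in pcf11-dNL. Group means ran in the order untreated pcf11-dNL, wild type and pcf11-13, then treated pcf11-dNL, pcf11-13 and wild type. Untreated pcf11-13 lay further below untreated wild type than the wild-type SD, and the other neighbours within a medium differed by less than it. Over the 5167 genes with 20 or more counts in each of the libraries, the median truncated fraction lay between 0.046 and 0.087. DEF1 stood above 92.5% and 96.1% of genes in untreated wild type and still above 78.5% and 87.0% in caffeine. Its drop ranked 23 of 5167 for the wild-type mean, 143 in pcf11-13 and 35 in pcf11-dNL, counted from the largest drop. The median change over all genes was -0.011 for the wild-type mean, and 65.9% of genes were below 0. These ranks describe the values by which DEF1 was picked.

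**Figure D2:**
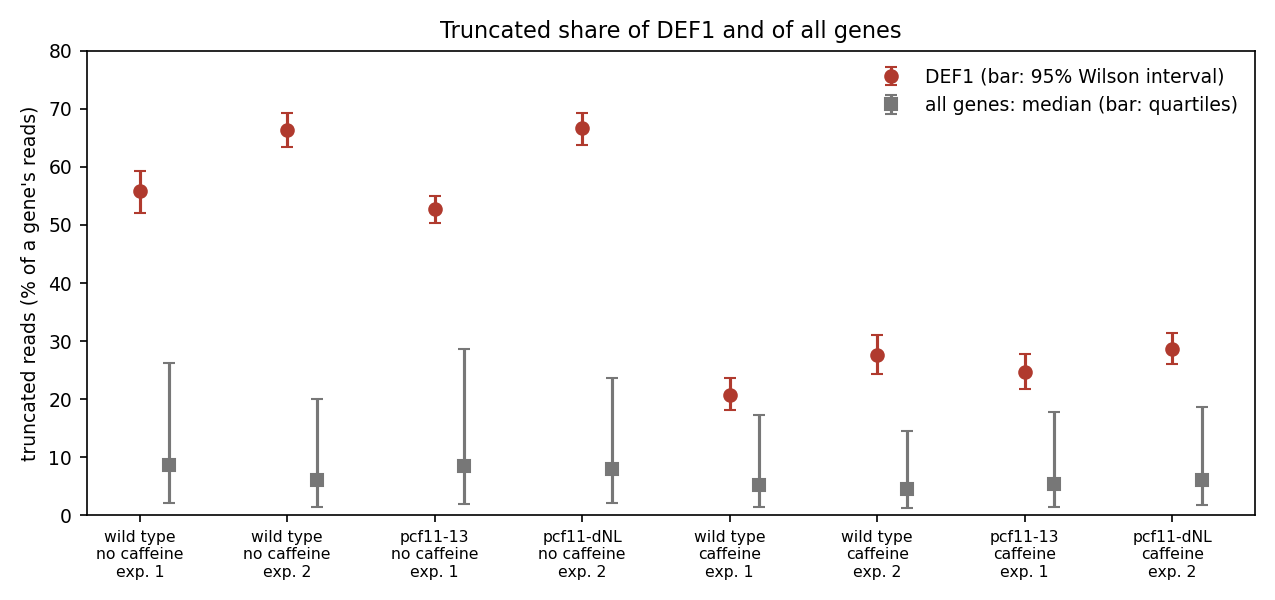
Truncated reads as a percentage of all reads in each library, for DEF1 (red points with 95% Wilson intervals) and for the same 5167 genes (grey squares, median with quartiles). DEF1 lies between 52.7% and 66.6% without caffeine and between 20.8% and 28.7% in caffeine, above the upper quartile of all genes in every library.

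The authors headed another class ProPrx, whose bounds neither the headers nor the labels define. It was taken here to lie within the truncated reads. On that reading, nearly all truncated DEF1 reads fell in it. The ProPrx fraction was 0.531 and 0.640 in untreated wild type, 0.495 in untreated pcf11-13 and 0.649 in untreated pcf11-dNL. In caffeine it was 0.179 and 0.246 for wild type, 0.215 for pcf11-13 and 0.249 for pcf11-dNL. The class thus holds 93.9 to 97.4% of the truncated reads without caffeine and 86.2 to 89.3% with it. The truncated reads outside the class kept a small share of all DEF1 reads, between 0.018 and 0.038 in the 8 libraries. The wild-type difference of the ProPrx fraction was -0.373 ± 0.030 (SD, n = 2), as large as that of the whole truncated fraction. For this class DEF1 stood nearer to the top of all genes: it was above 98.2 to 98.7% of them without caffeine and above 94.3 to 95.6% in caffeine. Pooled over the libraries, 54.9% of 8204 DEF1 reads were 3′ UTR reads and 42.2% were of the pooled class that the header calls ppCount.

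The lower level in caffeine was shared unequally by the read classes. Full-length DEF1, computed as the count times 1 minus the truncated fraction, stood at 312 and 230.3 CPM in untreated wild type, 324 CPM in untreated pcf11-13 and 351 CPM in untreated pcf11-dNL. In caffeine it stood at 170.5 and 112 CPM in wild type, 266 CPM in pcf11-13 and 173 CPM in pcf11-dNL. The full-length level was lower in caffeine within each pair, but the media overlap, since treated pcf11-13 lies above untreated wild type of experiment 2. Truncated DEF1 stood at 394 and 455 CPM in untreated wild type, 361 CPM in untreated pcf11-13 and 700.3 CPM in untreated pcf11-dNL. In caffeine it stood at 44.8 and 42.6 CPM in wild type, 87.4 CPM in pcf11-13 and 69.8 CPM in pcf11-dNL. In order, full-length levels ran from pcf11-dNL, pcf11-13 and wild type without caffeine to pcf11-13, pcf11-dNL and wild type in caffeine. Only treated pcf11-13 and treated pcf11-dNL differ, among these neighbours, by more than the wild-type SDs of 57.8 and 41.4 CPM. For truncated DEF1 the media lie far apart: the lowest untreated library is 361 CPM against a highest treated one of 87.4 CPM.

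**Figure D3:**
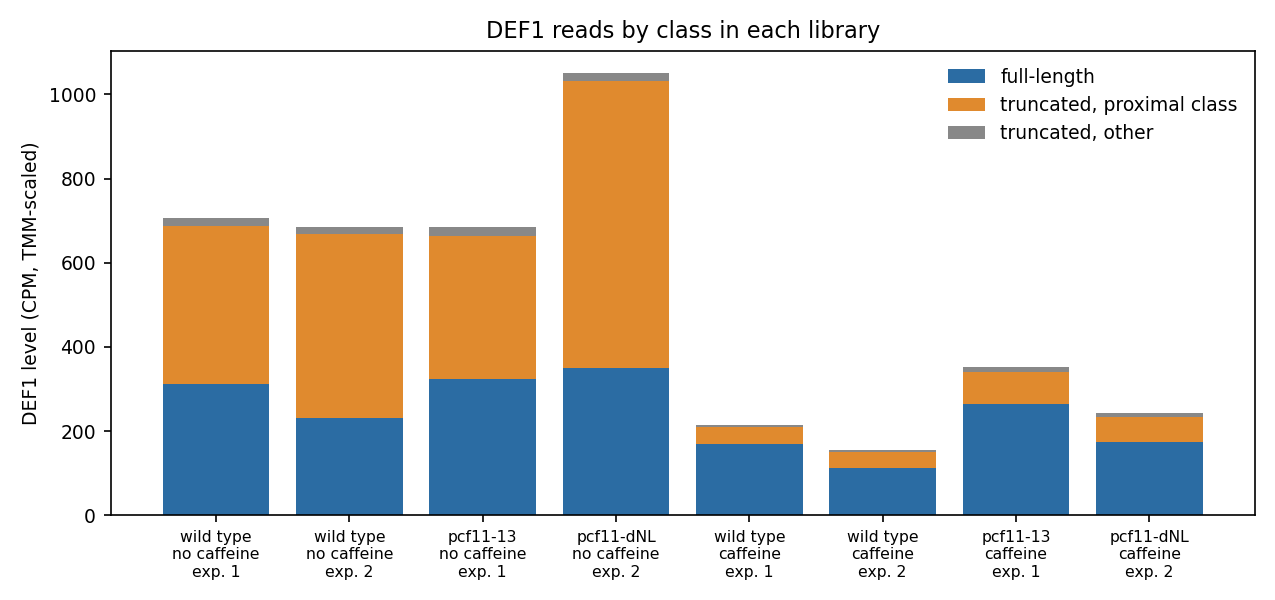
DEF1 level in each library (CPM, TMM-scaled, stacked bars from 0) split into full-length reads, truncated reads of the ProPrx class and other truncated reads. The ProPrx class was taken to lie within the truncated reads. The orange ProPrx class lies between 339 and 682 CPM without caffeine and between 38.1 and 75.8 CPM in caffeine. The blue full-length class lies between 230.3 and 351 CPM without caffeine and between 112 and 266 CPM in caffeine.

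In wild type the truncated class was 8.79-fold and 10.7-fold lower in caffeine in experiments 1 and 2, and the full-length class 1.83-fold and 2.06-fold lower. On the log2 scale the wild-type changes were -3.26 ± 0.20 for truncated and -0.95 ± 0.12 for full-length DEF1 (SD, n = 2). Truncated reads made up 71.1% and 77.7% of the CPM lost by wild type, 82.4% for pcf11-13 and 78.0% for pcf11-dNL. There were 1.26 and 1.98 truncated reads per full-length read in untreated wild type and 0.263 and 0.381 in treated wild type. In no pair was the smaller truncated share accompanied by a higher full-length level.

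**Figure D4:**
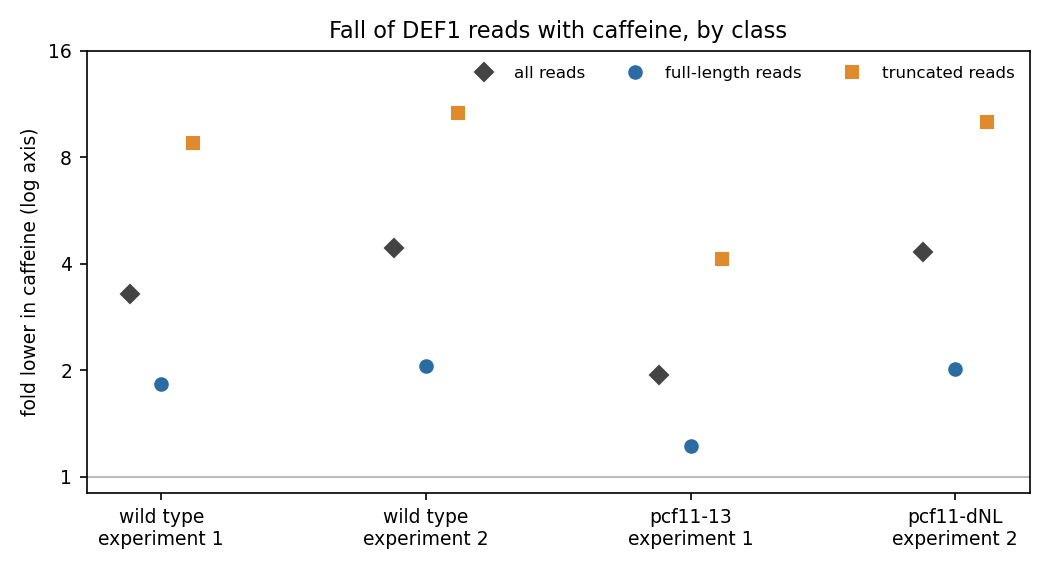
Fold by which DEF1 was lower in caffeine within each pair of libraries (log axis), for all reads, full-length reads and truncated reads. The fold was greatest for truncated reads in each pair (4.13 in pcf11-13 and 8.79 to 10.7 in the others) and smallest for full-length reads (1.22 in pcf11-13 and 1.83 to 2.06 in the others).

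The mean 3′ end of full-length DEF1 lay at nearly the same place in all libraries. The authors' mean 3′ UTR length was 203 and 209.9 nt in untreated wild type, 208 nt in untreated pcf11-13 and 209.9 nt in untreated pcf11-dNL. In caffeine it was 209 and 211 nt in wild type, 211 nt in pcf11-13 and 209 nt in pcf11-dNL. All 8 values lie within 7.93 nt. The mean ends thus lie 12.3 to 20.2 bases past the AATAAA shown above and 168 bases or more from the OAR1 coding region. The wild-type change was 3.74 ± 3.44 nt (SD, n = 2), about as large as its spread, while over all genes the median absolute change was 9.44 nt. Of all genes, 27.3% changed by less than DEF1 did.

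Each mutant was set against wild type of its own experiment, with no spread of its own. In pcf11-13 without caffeine, total DEF1 (685 against 706 CPM) and full-length DEF1 (324 against 312 CPM) were near wild type, with log2 differences of -0.04 and 0.05. The first of these changed sign with the library scaling, being 0.20 with none. In caffeine, pcf11-13 kept more DEF1 than wild type, with 353 against 215 CPM in total, a log2 difference of 0.71, and 266 against 170.5 CPM full-length, a log2 difference of 0.64. Both treated pcf11-13 values also lie above wild type of the other experiment. The caffeine change of full-length DEF1 in pcf11-13 was -0.29 on the log2 scale, against -0.87 and -1.04 in the wild-type pairs. Total DEF1 changed by -0.96 there, against -1.71 and -2.14. With a single pair, this difference between strains could not be tested. The depth order of the pcf11-13 pair was also the reverse of the others', and its part in the result was not tested. The pcf11-13 strain (MAT a, untagged allele) also differs from wild type (MAT alpha, tagged PCF11) in mating type and tag. These cannot be told apart from the mutation here.

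In pcf11-dNL, DEF1 was higher than in wild type of experiment 2 in either medium. Total DEF1 was 1051 against 686 CPM without caffeine and 243 against 155 CPM with it, log2 differences of 0.62 and 0.65. Full-length DEF1 was 351 against 230.3 CPM and 173 against 112 CPM, log2 differences of 0.60 and 0.63. Against wild type of experiment 1, the full-length differences shrank to 0.17 and 0.02. The truncated fraction of pcf11-dNL differed from wild type of its experiment by 0.002 without caffeine and by 0.011 with it. For pcf11-13 these differences were -0.031 and 0.040, and the second turned to -0.028 against wild type of the other experiment. Within an experiment, the mutant differences in truncated fraction were thus smaller than those between the wild-type libraries of either medium.

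Genes were ranked by likeness to DEF1, and the top 5 are named. How many others had a high correlation was not counted. By Pearson correlation of the truncated fraction over the 8 libraries, among 1595 genes whose fraction varied by at least 0.2, the nearest were PCS60 (r = 0.986), TPO2 (0.985), GAT1 (0.985), RRT13 (0.976) and DIT1 (0.975). GAT1, a GATA transcription activator of nitrogen-regulated genes, had a truncated fraction of 0.735 and 0.768 in untreated wild type and 0.451 and 0.435 in treated wild type. TPO2, a polyamine exporter gene, had 0.282 and 0.415 against 0.045 and 0.022. By log2 full-length CPM, among 5849 genes, the nearest were TEN1 (r = 0.972), UPS3 (0.969), KTR6 (0.966), FKS3 (0.966) and YGL041C-B (0.96). FKS3 lay between 0.502 and 1.8 log2 CPM, so its r rests on few reads. The 8 points share medium and, in 3 of the 4 pairs, depth. GCV1 and SEG2 were named after their values were seen: they were the only other genes of 5167 whose truncated fraction was lower in caffeine in all 4 pairs by at least as much as that of DEF1. GCV1, a glycine cleavage gene, went from 0.707 and 0.777 to 0.085 and 0.041 in wild type, from 0.427 to 0.086 in pcf11-13 and from 0.763 to 0.066 in pcf11-dNL.

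Genes of Def1's partners were set beside DEF1. Of 20 genes for the ubiquitylation and removal of RNA polymerase II, 2 rose and 2 fell in counts with caffeine in wild type, where 31.6% of all 5850 genes tested were called, 17.2% higher and 14.4% lower (edgeR quasi-likelihood test, adjusted p under 0.05). Their median log2 change was 0.16, against 0.02 over all genes. RPO21, the gene of Rpb1, stood at 277 and 218 CPM without caffeine and 121 and 107 CPM in caffeine. It fell by 1.11 ± 0.24 on the log2 scale (SE, edgeR adjusted p = 0.012). RUB1, a ubiquitin-like modifier of cullins, fell by 0.71 ± 0.21 (edgeR adjusted p = 0.032). CUL3, the cullin of the ligase that Def1 recruits, stood at 95.2 and 94.7 CPM without caffeine and 162 and 184 CPM in caffeine. It rose by 0.87 ± 0.22 (edgeR adjusted p = 0.019). UBP2, a deubiquitinase that works with Rsp5, rose by 0.94 ± 0.29 (edgeR adjusted p = 0.041). Without untreated or treated wild type of experiment 2, in that order, RPO21 changed by -1.28 or -1.03 and RUB1 by -0.732 or -0.687. CUL3 changed by 0.862 or 0.772 and UBP2 by 0.594 or 0.795. Over all genes, fewer were called in these 2 fits than with all libraries. RUB1 lost its call without any of the 4 wild-type libraries, CUL3 and UBP2 without either of experiment 2, and RPO21 without the treated one of experiment 2, and DESeq2 did not call RUB1, CUL3 or UBP2. The ligase gene RSP5 had a log2 change of -0.20 ± 0.23, the Elongin genes ELC1 and ELA1 0.15 ± 0.24 and 0.77 ± 0.31, and UBP3, whose product deubiquitylates Rpb1, -0.34 ± 0.26 (SE, edgeR adjusted p = 0.53, 0.66, 0.088 and 0.33). ELA1 depended on the treated libraries, at 1.15 without that of experiment 1, where it was called (edgeR adjusted p = 0.0105), and 0.27 without that of experiment 2 (0.651).

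Counting full-length reads alone, 4 of the 20 rose and 2 fell, where 33.5% of 5709 genes were called, 19.8% higher and 13.6% lower. Here RAD26, a DNA repair ATPase found with Def1 on chromatin, had 21.5 and 14.0 CPM without caffeine and 40.5 and 43.7 CPM in caffeine. It rose by 1.25 ± 0.31 (edgeR adjusted p = 0.017), a call lost without either experiment 2 library (0.0902 and 0.0646). CUL3 rose by 1.06 ± 0.24 (edgeR adjusted p = 0.012) and RPO21 fell by 0.91 ± 0.23 (0.018), calls lost without treated wild type of experiment 2 and, for RPO21, also without that of experiment 1. UBA1, the ubiquitin-activating enzyme gene, rose by 0.82 ± 0.26 (edgeR adjusted p = 0.043), a call lost when any of the 4 wild-type libraries was left out. Without untreated or treated wild type of experiment 2, in that order, RAD26 changed by 0.945 or 1.19 and CUL3 by 1.12 or 0.923. RPO21 changed by -0.869 or -0.847 and UBA1 by 0.914 or 0.686. Over all genes, fewer were called in these 2 fits than with all libraries.

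The truncated fraction was below 0 in its caffeine change for 17 of the 20 genes and for 65.9% of all 5167 genes. The median change of the 20 was -0.040, against -0.011 over all genes. By limma 0 of the 20 passed, and 0% of 5167 genes did, although 1021 genes and 3 of the 20 had an unadjusted p under 0.05. An edgeR test on truncated against full-length counts within each library, chosen after seeing the data, called 9.6% of the genes, 2.23% higher and 7.37% lower, and 2 of the 20, both lower. RAD26 went from truncated fractions of 0.469 and 0.344 to 0.176 and 0.106 in wild type, from 0.446 to 0.223 in pcf11-13 and from 0.364 to 0.172 in pcf11-dNL. Its odds of truncation fell by 2.06 ± 0.59 on the log2 scale (SE, edgeR adjusted p = 0.038), and for UBA1 they fell by 2.15 ± 0.58 (edgeR adjusted p = 0.029).

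**Figure D5:**
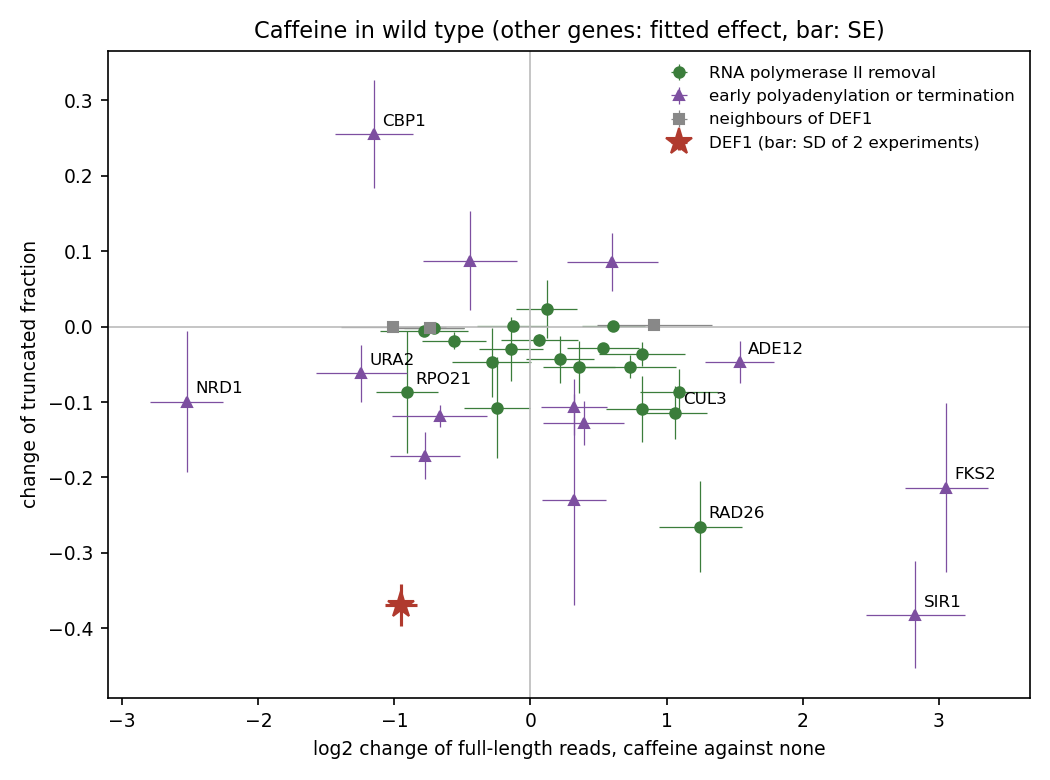
Caffeine change in wild type of full-length reads (log2, horizontal) and of the truncated fraction (vertical), for genes of RNA polymerase II removal (circles), genes with known early polyadenylation or termination (triangles), neighbours of DEF1 (squares) and DEF1 (star). Bars are SE of the fit, or for DEF1 the SD of 2 experiments. DEF1 lies at -0.95 and -0.369, low on both axes, whereas RAD26, SIR1 and FKS2 lie low on the vertical axis and high on the horizontal axis.

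Genes with known premature polyadenylation or early termination were set beside DEF1. Of 13, 4 rose and 3 fell in counts with caffeine in wild type, among the 31.6% called. FKS2, a glucan synthase gene of the cell wall stress response, rose by 2.60 ± 0.36 (SE, edgeR adjusted p = 0.0025). ADE12 (adenylosuccinate synthase), SIR1 (silencing) and HRP1, which encodes the efficiency-element protein, rose by 1.47 ± 0.25, 1.12 ± 0.23 and 1.09 ± 0.30 (edgeR adjusted p = 0.0046, 0.0095 and 0.027). NRD1, whose product terminates short transcripts and its own, stood at 306 and 193 CPM without caffeine and 41.0 and 32.5 CPM in caffeine. It fell by 2.76 ± 0.29 (edgeR adjusted p = 0.0012). URA2 and IMD3, of pyrimidine and guanine nucleotide synthesis, fell by 1.34 ± 0.36 and 1.07 ± 0.23 (edgeR adjusted p = 0.026 and 0.012). FKS2, ADE12 and NRD1 stayed called without each wild-type library in turn, and the other 4 did not. Without untreated wild type of experiment 2, SIR1, IMD3 and HRP1 were lost, without treated wild type of experiment 2 IMD3, HRP1 and URA2, and without untreated wild type of experiment 1 URA2.

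Counting full-length reads alone, 3 of the 13 rose (FKS2, ADE12 and SIR1) and 3 fell (NRD1, URA2 and CBP1). Of all 5709 genes tested, 33.5% were called, 19.8% higher and 13.6% lower. HRP1, called higher in counts, changed by 0.601 ± 0.335 here (SE, edgeR adjusted p = 0.19), and IMD3 was not called either. SIR1 had a large truncated share, as DEF1 did, but moved the other way in full-length RNA. Its truncated fraction was 0.863 and 0.796 in untreated wild type and 0.525 and 0.370 in treated wild type. Its full-length level was 8.05 and 10.5 CPM without caffeine and 51.6 and 81.7 CPM in caffeine, a rise of 2.83 ± 0.36 on the log2 scale (edgeR adjusted p = 0.0020). CBP1, a mitochondrial mRNA stability factor gene with a known internal site, went from truncated fractions of 0.333 and 0.227 to 0.601 and 0.470, and its full-length RNA fell by 1.15 ± 0.28 (edgeR adjusted p = 0.017). That call was lost without treated wild type of experiment 1 (0.0885) or untreated wild type of experiment 2 (0.0903). In treated pcf11-13 the truncated fraction of CBP1 was 0.126, with 419 CPM of full-length RNA. For the truncated fraction, 10 of the 13 were below 0 in their caffeine change, where 65.9% of all genes were. By limma 0 passed, with 5 at an unadjusted p under 0.05, as were 1021 of all 5167 genes. The edgeR test on class counts called 4, all lower (ADE12, IMD3, SIR1 and URA8), and 9.6% of all genes. HRP1 and RNA14 stayed highly truncated in either medium of wild type, at 0.657 to 0.853.

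With all libraries, no member of these lists passed in a mutant by edgeR on counts or by limma on truncated fractions. In pcf11-13, 0 of 20 and 0 of 13 were called in counts by edgeR, where 3.03% of 5816 genes were. At an unadjusted edgeR p under 0.05 were 4 and 6, and 1228 of all 5816 genes. DESeq2 called 5 of the 13 there (FKS2, URA2, CBP1, URA8 and SIR1) and 0 of the 20, where it called 413 of all 5816 genes. In the truncated fraction 0 of 20 and 0 of 13 passed by limma in pcf11-13, where 0.213% of 5167 genes did. At an unadjusted limma p under 0.05 were 3 of each list, and 750 of all 5167 genes. The edgeR test on class counts called 2.73% of genes there and SIR1 alone of these lists, whose odds of truncation fell by 1.82 ± 0.45 on the log2 scale (edgeR adjusted p = 0.032). In pcf11-dNL, 0% of genes were called by edgeR or DESeq2 in counts or by limma in truncated fraction, with 162 in counts and 220 in truncated fraction at an unadjusted p under 0.05.

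The neighbours MDM35, TMA19 and ASK1 had few truncated reads. MDM35, on the upstream side, had truncated fractions between 0.002 and 0.014 in the 8 libraries. It stood at 234 and 285 CPM without caffeine and 168 and 143 CPM in caffeine in wild type, and fell by 0.74 ± 0.24 (SE, edgeR adjusted p = 0.048). This call was lost with DESeq2 (adjusted p = 0.0738) and when edgeR also fitted the experiment (0.0575), and without any wild-type library other than the untreated one of experiment 1. OAR1, just downstream, stood between 9.05 and 16.8 CPM in the 8 libraries, too few counts for the test of fractions, with a log2 change of -0.13 ± 0.35 (edgeR adjusted p = 0.79). TMA19 and ASK1 had log2 changes of -1.01 ± 0.39 and 0.91 ± 0.42 (edgeR adjusted p = 0.077 and 0.13). DESeq2 called TMA19 lower (-1.04, adjusted p = 0.0116). ASK1 was called higher when edgeR also fitted the experiment (0.85, 0.0342) and without treated wild type of experiment 1 (1.40, 0.00141). By the edgeR test with all libraries, 1 of these 4 neighbours fell in counts in wild type, where 31.6% of all genes were called, and 0 were called in either mutant, where 3.03% (pcf11-13) and 0% (pcf11-dNL) of all genes were.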

How the data were processed

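Helicos direct RNA sequencing was run on total RNA, hot-phenol extracted and DNase-treated per the labels' protocols. The authors deposited 4 tables over 5933 genes and 8 libraries. They hold expected counts (estimated reads per gene, not normalized), the truncated fraction, the ProPrx fraction and the mean 3′ UTR length in nucleotides, per the file headers. Pooled expected counts of the authors give all reads, 3′ UTR reads and a class headed ppCount. Per the submitters' processing notes, reads were placed on sacCer3. No aligner, counting rule or use of strand is stated in the labels or headers (not given in the sources used here), so reads shared by overlapping or near-identical genes are uncertain.

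Of the gene identifiers, 5919 matched RefSeq locus tags of R64 and 14 did not. Truncated and full-length counts were computed as count times fraction. Counts were rounded for the quasi-likelihood test of edgeR 4.0.16 (R 4.3.3, TMM, filterByExpr, Benjamini-Hochberg adjustment over all genes tested, threshold 0.05), after a test on simulated data. The caffeine test fitted 6 group means over all 8 libraries. The mutant tests fitted genotype and medium, so that a mutant's 2 media served as its 2 libraries. Fractions were tested with limma 3.58.1 over genes with 20 or more counts in each of the libraries. DESeq2 1.42.0 was an alternative. For single libraries, log2 CPM had 2 as the prior count. Wilson 95% intervals came from scipy 1.17.1. Libraries held 1070278 to 4555751 counts, which sets the precision of low genes.

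DEF1 and the gene lists were chosen with earlier results of these data known. Named genes are DEF1, list members past a threshold or closest to Def1's role, the 2 genes on each side, and the 5 genes most like DEF1 by each of 2 correlations. The experiment number, shared by libraries of the same experiment in the labels, was used as a block in an alternative. Over 5167 genes, the difference between the experiments without caffeine correlated with that in caffeine at r = 0.216 for log2 CPM and 0.312 for the truncated fraction in wild type.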

Additional observations from a re-analysis of the deposited data

How the results depend on the processing

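The caffeine differences of DEF1 in wild type (total, full-length and truncated level, and both fractions) kept their direction under every alternative run, each experiment alone included. The log2 difference in total DEF1 ranged from -2.14 to -1.71. The difference in 3′ UTR length was 6.17 nt within experiment 1 and 1.30 nt within experiment 2, against 3.74 nt over both. The mutant differences rest on 1 library each, with 1 wild-type library beside it, and depended on which one. Against wild type of the other experiment, the log2 differences in total DEF1 were -0.001016 and 1.19 for pcf11-13 without and with caffeine and 0.57 and 0.17 for pcf11-dNL. Those in full-length DEF1 were 0.49, 1.24, 0.17 and 0.0235, and those in truncated fraction -0.137, -0.028 (reversed), 0.109 and 0.079. Without library scaling the untreated total difference was 0.20 for pcf11-13 (reversed) and 0.71 for pcf11-dNL, and without plasmid features it was -0.0746 for pcf11-13. The cause was not tested.

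With each library left out in turn, where a lone wild-type library was assumed to vary like the others, the caffeine calls in counts ranged from 1 to 4 among genes of polymerase removal (4 with all libraries) and from 4 to 7 in the early polyadenylation list (7). In full-length counts they ranged from 0 to 4 (6) and from 5 to 6 (6). The early list in pcf11-13 had 0 to 3 calls (0). DESeq2 called 2 of the polymerase removal genes with caffeine, where it called 1420 of all 5850 genes. It called 5 of the early list in pcf11-13, where it called 413 of all 5816. The class-count test called 2 and 4 genes of the lists with caffeine and 1 of the early list in pcf11-13, against 0 by limma. With any 1 wild-type library left out, caffeine calls in counts over all genes were fewer too. In full-length counts they were fewer except without untreated wild type of experiment 1. For pcf11-13, calls in counts over all genes were more without its untreated library, the fit with the most early-list calls. They were fewer without any other library. With the experiment as a replicate block, the calls were 4 and 7 in counts, 8 and 7 in full-length counts and 0 in every mutant comparison. Over all genes the block called 1956 of 5850 with caffeine in counts and 2407 of 5709 in full-length counts, against 1851 and 1910 without it. In counts the block ended the call of MDM35 (-0.74, edgeR adjusted p = 0.0575) and made that of ASK1 (0.85, 0.0342). In full-length counts it made the calls of ASK1 (0.85, 0.014), ELA1 (0.77, 0.0265), UBX5 (0.70, 0.0486), MDM35 (-0.74, 0.032) and IMD3 (-0.78, 0.0233), by edgeR's adjusted p. Over all genes, calls in counts for pcf11-13 were 176, against 413 by DESeq2, 30 with the block and 23 without untreated wild type of experiment 2. At 685 to 1828 counts, counting error on a DEF1 share is a few percentage points, while the untreated wild-type libraries stood at 55.8% and 66.4% truncated.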
